A study of Gallus gallus with 2 samples.

Results

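Among 21993 long non-coding RNA (lncRNA) transcripts listed for chicken breast muscle, 618 had reads in the pooled library of 1 strain and a dash in place of every value in the library of the other. They were chosen by these measured values themselves, a dash in exactly 1 library and at least 0.5 RPKM in the other, where RPKM scales the reads of a transcript by its length in kilobases and by the library's total in M reads. The transcripts with a dash in the White Recessive Rock library numbered 461, which is 2.1% of those listed, and those with a dash in the Xing Hua library numbered 157, or 0.714%. They are called the dash-in-WRR and the dash-in-XH transcripts here. Since the values chose them, their levels and folds are given as a description with no test.

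White Recessive Rock (WRR) is labelled a fast-growing strain and Xing Hua (XH) a native Chinese strain that grows slowly. Breast muscle came from 7-week-old hens kept in 1 space, in separate cages, on 1 diet, and the labels give body weights of 625.3 ± 12.0 g for WRR and 328.5 ± 10.6 g for XH without naming the kind of error. RNA of 4 hens per strain was pooled in equal amounts, freed of ribosomal RNA and made into 1 strand-marked library per strain. With 1 library a strain there is no replicate check, the spread between hens cannot be estimated, cage and strain cannot be told apart, and no p-value is given.

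A lncRNA is a transcript from which no protein is known to be made. Many are spliced, of low abundance and restricted to few tissues, and their sequences change faster between species than those of messenger RNAs. Some act on genes beside the place where they are made and others bind proteins or microRNAs elsewhere; in mouse and human muscle precursors, the lncRNA linc-MD1 is known to hold microRNAs away from messenger RNAs of muscle differentiation factors.

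The table gives a position on the chicken build galGal4, a length, reads, coverage (the percent of the length under reads) and RPKM, and holds no strand, sequence or gene name. The identifiers are not paired with genes there, so transcripts are named by position, with starts printed as counted from 1. Neither the tissue nor the presence of other cell types could be checked against marker genes for the same reason. The listed transcripts held 1846031 reads in WRR and 1883727 in XH. Over the 21625 transcripts that reached 0.5 RPKM in either library, the log2 ratio (WRR over XH) had a median of -0.92, a median fold of 1.89 towards XH. In bulk muscle, fewer cells of a type and less RNA per cell cannot be told apart.

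The dash-in-WRR transcripts were short and lightly read. Their reads in XH had a median of 16 with quartiles of 11 and 20, and ranged from 1 to 610. The median level was 3.29 RPKM (quartiles 2.02 and 4.73, range 0.513 to 63.9). Of the 461, 354 had at least 10 reads, 116 at least 20, 26 at least 30 and 6 at least 100, while 43 had fewer than 5 and 5 of those had 1 read. The reads covered a median of 85.1% of the length (quartiles 54.4 and 93.0%). High levels were rare, since 15 transcripts reached 10 RPKM and 3 reached 50 RPKM.

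The dash-in-XH transcripts were read still more lightly. Their reads in WRR had a median of 12 with quartiles of 6 and 18, and ranged from 2 to 77. The median level was 1.87 RPKM (quartiles 0.959 and 3.41, range 0.534 to 13.0). At least 10 reads were found on 93 of the 157, at least 20 on 29, at least 30 on 7 and at least 50 on 2, and 22 had fewer than 5. Coverage had a median of 64.3% (quartiles 35.4 and 89.5%). A level of 10 RPKM was passed by 1 transcript.

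How far such a count bounds a difference depends on its size. The lower bound given here is the lower end of an exact 2-sided 95% interval. Against 0 reads in WRR, the bound of the XH over WRR ratio lay above 2 from 8 reads upwards, which 371 of the 461 had. It lay above 5 for 218 and above 10 for 24. Against 0 reads in XH, whose total is lower, 11 reads were needed for a bound above 2, and 86 of the 157 had them, with 11 above 5 and 2 above 10. For 43 dash-in-WRR and 40 dash-in-XH transcripts the lower bound was not above 1, so that at this depth the 0 reads of the other library could not be told from an equal level. All bounds and intervals given cover counting error only, as there is 1 pooled library per strain. The reads carry no molecular identifiers, so repeated reads of 1 molecule could not be told apart either. The bounds of dash transcripts also take no account of their choice by the dash. They describe the counts and are no test of a difference.

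At the 0.5 RPKM threshold the dash-in-WRR transcripts just inside had 0.513, 0.513 and 0.536 RPKM on 4, 4 and 1 reads. Those just outside had 0.496, 0.491 and 0.491 RPKM on 9, 3 and 1 reads. For the dash-in-XH transcripts the values were 0.534, 0.554 and 0.578 RPKM inside, on 4 reads each, and 0.491, 0.479 and 0.475 RPKM outside, on 4, 3 and 2 reads. Below the threshold lay 83 further dashes in WRR and 139 in XH, and no transcript had a dash in both libraries.

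**Figure D1:**
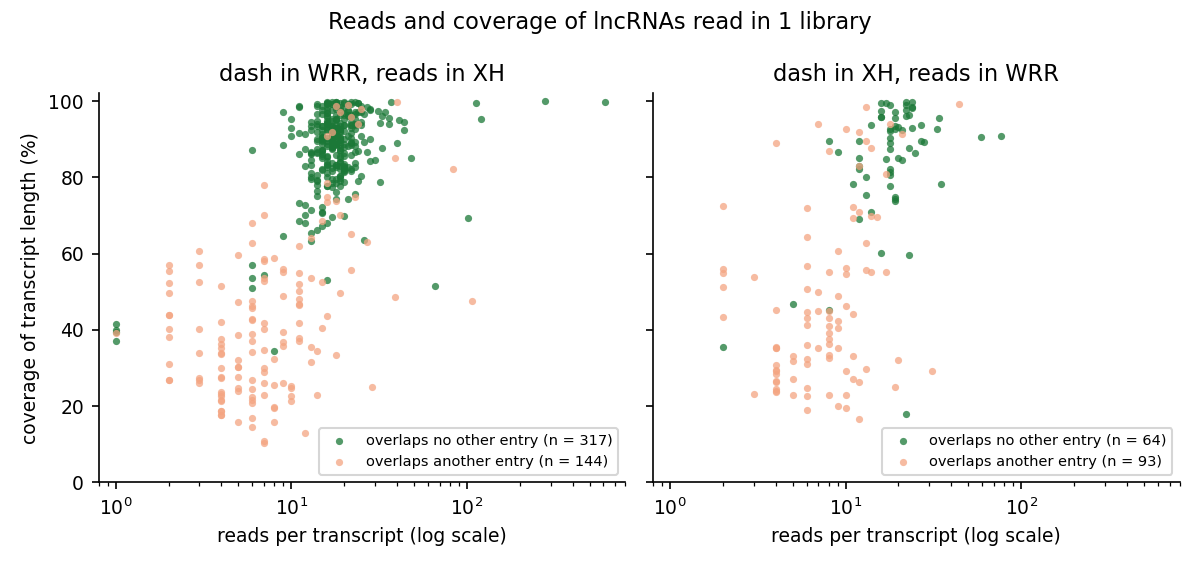
Reads per transcript (log scale) against coverage of the transcript length in percent, 1 point per transcript, for the 461 dash-in-WRR transcripts by their XH reads (left) and the 157 dash-in-XH transcripts by their WRR reads (right). Transcripts that overlap no other listed interval (green) have median coverages of 89.7% (left) and 89.6% (right), and those that overlap another (orange) spread lower, with medians of 39.3 and 42.4%.

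Overlap with another listed transcript divided both groups, a split made after the values were seen. The interval of 144 dash-in-WRR transcripts shared at least 1 base with another listed interval, 31.2% of them (exact 95% interval 27.03 to 35.69%). For the dash-in-XH transcripts this was 93, or 59.2% (51.1 to 67.0%). Among the listed transcripts that carry no such dash the share was 13.3%. The overlap was thus more frequent in both groups than among the rest, and most frequent where the dash stood in XH.

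The overlapping transcripts were also the ones with few reads and low coverage. Among the dash-in-WRR transcripts the median was 7 reads and 39.3% coverage for the 144 that overlapped another, and 18 reads and 89.7% coverage for the 317 that did not. Among the dash-in-XH transcripts the medians were 8 reads and 42.4% for the 93 that overlapped another, and 18.5 reads and 89.6% for the 64 others. The separate transcripts of both groups therefore looked alike in reads and coverage, and the lower medians of the dash-in-XH group went with its larger share of overlaps. At least 10 reads were found on 304 of 317 separate and 50 of 144 overlapping dash-in-WRR transcripts, and on 59 of 64 and 34 of 93 dash-in-XH transcripts. Coverage of 90% or more was reached by 155 of 317 against 9 of 144, and by 30 of 64 against 7 of 93.

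Median coverage was lower in the classes with more of the interval overlapped, though the intervals of these medians overlapped. For dash-in-WRR transcripts overlapped over less than 50% the median coverage was 74.9% (n = 11), for 50 to 90% it was 42.4% (n = 70) and for 90% or more it was 33.9% (n = 63). For dash-in-XH transcripts the same classes had 75.3% (n = 10), 43.1% (n = 47) and 33.2% (n = 36). The 95% intervals of the first class were wide, 24.0 to 97.3% for dash-in-WRR and 29.2 to 94.0% for dash-in-XH transcripts. The next were 36.8 to 47.4% and 36.0 to 48.9%, and the last 26.8 to 40.1% and 28.4 to 50.7%. They overlapped in both groups, so no trend is read from them. Low coverage in overlapping transcripts was not particular to the dashes. Among all other listed transcripts, those that overlapped another had median coverages of 53.7% in WRR and 61.3% in XH, against 83.2 and 91.0% for those that did not.

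For most of these transcripts the library with the dash did have reads listed under the partner. These were counted over the partner's whole length, and the shared stretch could be short or fall in a gap. The partner of 130 of the 144 overlapping dash-in-WRR transcripts had WRR reads, at least 10 of them for 74 partners, and the partner of 83 of the 93 overlapping dash-in-XH transcripts had XH reads, at least 10 for 49. A dash there is a statement about 1 listed transcript, and whether the shared stretch itself had reads was not worked out pair by pair. The table gives no strand, so whether a partner lies on the same strand was not known here, and reads of overlapping transcripts cannot be told apart. Of 158 overlapping pairs with a dash-in-WRR transcript, 135 had a partner past 0.5 RPKM, and this partner was at least 2-fold higher in XH in 43 (31.9%, exact 95% interval 24.1 to 40.4%) and in WRR in 29 (21.5%). Of 105 overlapping pairs with a dash-in-XH transcript, 91 had such a partner, which was at least 2-fold higher in WRR in 5 (5.49%) and in XH in 53 (58.2%, 47.4 to 68.5%). Overlapping neighbours of transcripts without a dash had 41.0% higher in XH and 13.4% higher in WRR. The partners thus leaned towards the library with the dash more often than such neighbours did. This comparison takes no account of the runs of serial numbers described below, from which the partners mostly came.

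Examples show how unlike the 2 entries at a place could be. The 481-base dash-in-WRR transcript at chromosome 22, 1591274 to 1591754, had 7 reads in XH, and the 2527-base partner over 78.6% of its interval had 145 reads in WRR and 169 in XH. That partner had 92.5% coverage in WRR, and the unread rest was shorter than the 378 bases shared. Part of the shared stretch was thus read in WRR. The 422-base dash-in-XH transcript at chromosome 2, 122496683 to 122499612, had 11 reads in WRR and 69.4% coverage, while its 388-base partner had 180 reads in WRR and 118 in XH. At these places the partner was read in both libraries. A dash-in-XH transcript with the fewest reads of its group, on an unplaced scaffold, had 2 reads in WRR and a partner with 289 reads in WRR and 257 in XH. The dash-in-XH transcript at chromosome 23, 5683325 to 5695230, spread 490 bases over an interval that held parts of 8 other listed transcripts, each with 4 to 20 reads in WRR and 14 to 46 in XH, and itself had 6 reads in WRR. All 8 partners were read in the library where that transcript had its dash.

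At 4 places a dash-in-WRR and a dash-in-XH transcript overlapped each other. On chromosome 1 the dash-in-WRR transcript at 69205650 to 69206392 had 7 reads in XH, and the dash-in-XH transcript at 69205728 to 69206666 had 6 reads in WRR, with 665 bases shared. On chromosome 13 the transcripts at 9703475 to 9704484 and 9703487 to 9704836 shared 998 bases and had 4 reads in XH and 20 in WRR. Each library was thus read there under a different entry. On chromosome 2 the pair near 43740951 had 3 reads in XH and 13 in WRR, and on chromosome 28 the pair near 2061118 had 5 reads in XH and 6 in WRR.

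The serial numbers of the identifiers run through the chromosomes 3 times, which makes 3 series, called A, B and C here by their order. The sources used here do not say how they arose. Series C held 452 of the 461 dash-in-WRR transcripts (98.0%) and 48.3% of all listed. Series B held 152 of the 157 dash-in-XH transcripts (96.8%) and 35.1% of all listed. Series A held 1 dash-in-XH transcript, at 16.6% of all listed. Partners mostly came from the opposite series, with 110 of 158 dash-in-WRR pairs having a partner of series B and 93 of 105 dash-in-XH pairs one of series C. Within 10 kb of transcripts without a dash, 76.2% of series C transcripts past 0.5 RPKM were at least 2-fold higher in XH. Of those of series B, 19.4% were at least 2-fold higher in WRR. The 58.2% in XH among partners of dash-in-XH transcripts (47.4 to 68.5%) lay below the 76.2%. The 21.5% in WRR among partners of dash-in-WRR transcripts (14.9 to 29.4%) had the 19.4% within its interval. The sets are unlike, since partners of all series were counted and the 76.2 and 19.4% cover all neighbours of 1 series. No lean of the partners beyond that of the series is therefore read from these shares. Each group is therefore set beside its own series below as well as beside all transcripts.

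Within series C and series B a dash became rarer as reads in the other library increased up to 100. Over all listed transcripts the WRR dash stood at 11.1% with 1 to 5 XH reads. It then stayed at 4.87% with 6 to 10, 5.47% with 11 to 15 and 5.07% with 16 to 20. The XH dash over all listed stood at 5.62% with 1 to 5 WRR reads, 1.80% with 6 to 10 and 1.18% with 16 to 20. In series C a WRR dash stood at 42.8% of the transcripts with 1 to 5 XH reads (95 of 222), at 22.8% with 6 to 10, at 6.69% with 16 to 20 and at 0.823% with 31 to 50. In series B an XH dash stood at 45.2% of the transcripts with 1 to 5 WRR reads (118 of 261), at 21.6% with 6 to 10, at 2.32% with 16 to 20 and at 0.350% with 31 to 50. Up to 10 reads these shares within the series lay within each other's exact intervals, unlike those over all listed. At 16 to 20 reads the WRR dash was the more frequent within the series (5.73 to 7.75% against 1.58 to 3.28%). Past 100 reads there were 6 dashes among 604 series C transcripts and 0 among 1074 of series B. In series C the share was 0.993% past 100 reads (exact 95% interval 0.365 to 2.15%). At 51 to 100 reads it was 0.157% (0.0190 to 0.565%), 2 of 1275. These intervals overlap, so no rise past 100 reads is read from them.

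**Figure D2:**
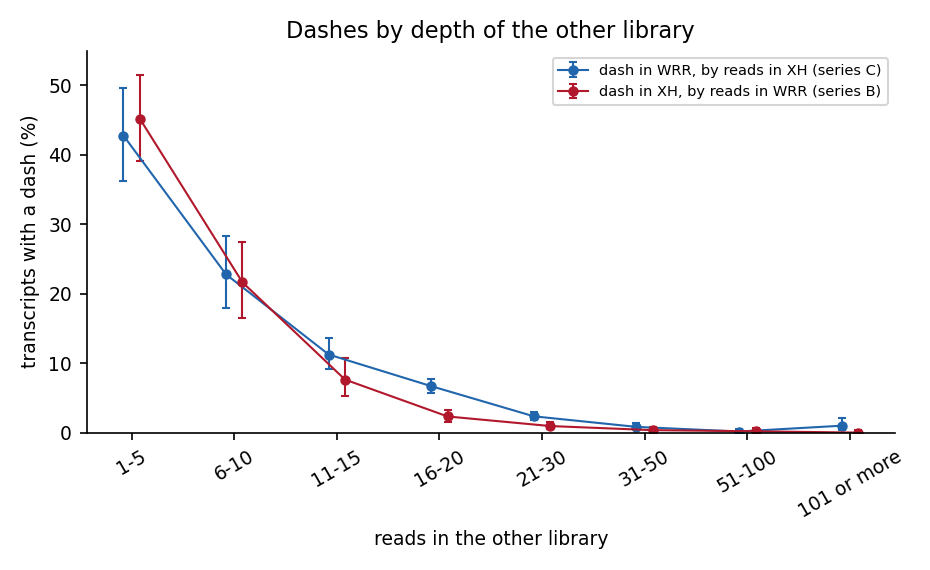
Percent of transcripts with a dash (vertical axis) by class of reads in the other library (horizontal axis), for WRR dashes in series C (blue) and XH dashes in series B (red), with exact 95% intervals. Both curves go from above 40% at 1 to 5 reads to below 1% at 31 to 50 reads, and the blue one stands above the red one at 16 to 20 reads, at 6.69% against 2.32%.

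Both groups were shorter than the rest. The median length was 611 bases (quartiles 442 and 814, range 204 to 2826) for the dash-in-WRR and 602 bases (471 and 784, 226 to 2209) for the dash-in-XH transcripts, against 844 bases over all listed, 766 in series C and 812 in series B. Under 500 bases were 35.4% of the dash-in-WRR transcripts against 22.3% of series C, and 31.2% of the dash-in-XH transcripts against 20.7% of series B. Lengths of 2000 bases or more were found for 3 (0.651%) and 1 (0.637%) of them. The share was 10.1% of all listed, 5.17% of series C and 7.37% of series B. Length is not independent of the rule, since a short transcript collects few reads at a given RPKM. The longest dash-in-WRR transcript, 2826 bases at chromosome 1, 155285743 to 155291146, shared its whole interval with another dash-in-WRR transcript of 2581 bases, and they had 29 and 14 reads in XH at 25.1 and 23.1% coverage.

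Gapped transcripts, whose genomic interval is longer than the transcript, made up 23 of the 157 dash-in-XH transcripts, 14.6% (exact 95% interval 9.52 to 21.2%). Over all listed the share was 4.84%, and in series B it was 5.92%. Among the dash-in-WRR transcripts it was 19 of 461, or 4.12% (2.50 to 6.36%), against 3.16% in series C. The gapped form was thus more frequent among the dash-in-XH transcripts than in their own series, beyond counting error, and this was not seen for the dash-in-WRR transcripts.

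The dash-in-WRR transcript with the most reads was Unigene19293_All, 1399 bases at chromosome 4, 13706488 to 13707886, with 610 reads in XH over 99.6% of its length, 56.5 RPKM, and 0 reads in WRR. Against a floor of 3 reads per library XH stood 249-fold higher, and the exact lower bound against 0 reads was 202. A second dash-in-WRR transcript of 694 bases followed just after its end, at 13707953 to 13708646, with 41 reads, 94.96% coverage and 7.66 RPKM in XH. Together the adjoining entries had 651 reads in XH and 0 in WRR. The nearest other listed transcripts lay 37715 bases before and 27696 bases after them, so this was an isolated place.

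A similar pair stood on chromosome 6. Unigene21030_All, 1127 bases spread over 34380 bases of genome at 31454852 to 31489231, had 280 reads in XH, 99.9% coverage and 32.2 RPKM, with an exact lower bound of the fold of 92.3. The 429-base transcript just before it, at 31454295 to 31454723, had 112 reads, 99.5% coverage and 33.8 RPKM in XH, with an exact lower bound of 36.6. Their levels per length were nearly equal, and the pair had 392 reads in XH and 0 in WRR. No other listed transcript lay within 612379 bases before or 38085 bases after it.

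Of the 6 dash-in-WRR transcripts at 20 RPKM or more, the other 3 were short and had no listed neighbour within 10 kb. At chromosome 1, 162396146 to 162396450, 305 bases had 121 reads in XH, 95.4% coverage and 51.4 RPKM, with an exact lower bound of the fold of 39.5. At chromosome 1, 141598775 to 141598979, 205 bases had 101 reads and 63.9 RPKM, the highest level of all 618, and 69.3% coverage. At chromosome 1, 61618599 to 61618979, 381 bases had 66 reads on 51.4% of the length. The reads of the last were thus piled on part of a short transcript, and the first was read from end to end. The transcripts at chromosome 4, 80781080 to 80782158 and 67281108 to 67282413, had 48 and 44 reads at 85.1 and 92.3% coverage, and no neighbour either.

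The dash-in-XH transcript with the most reads, Unigene6924_All, was gapped, 626 bases spread over 26537 bases at chromosome 2, 55910590 to 55937126. It had 77 reads in WRR over 90.7% of its length, 13.0 RPKM, and a dash in XH. WRR stood at least 20.97-fold higher, with an exact lower bound of 16.6. The 4 listed transcripts before it were read in both libraries, with ratios of WRR over XH from 0.687 to 1.08. The nearest, at 55909826 to 55910215, had levels of 9.78 RPKM (WRR) and 12.6 RPKM (XH), and for the first, at 55905146 to 55906239, the ratio was 1.08 (0.948 to 1.23). The ones between had ratios of 0.713 (0.639 to 0.795) and 0.687 (0.532 to 0.885), lower in WRR beyond counting error. As XH over WRR these were 1.40 and 1.46, below the median fold of 1.89 over transcripts past the filter. No particular lean towards XH is therefore read from them. The dash was therefore held by the last of 5 neighbouring entries and by none of the others.

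The others of this group with many reads were Unigene8284_All on an unlocalised scaffold of chromosome 2, with 59 reads in WRR, and 1 at chromosome 27, 1514915 to 1515349, with 35 reads in WRR over 78.2% of 435 bases. The transcript at chromosome 21, 2917952 to 2918486, had 28 reads at 89.4% coverage and no neighbour, and so had the 246-base transcript at chromosome 3, 76874939 to 76875597, with 22 reads, 97.6% coverage and 9.47 RPKM. The transcript at chromosome 5, 20862730 to 20870420, stood apart in coverage, with 31 reads on 29.2% of its length, and overlapped a partner with 61 reads in WRR and 36 in XH. Several of the remaining ones lay together in blocks, described next after their surroundings.

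Neighbours are listed transcripts past 0.5 RPKM whose edges lie within 10 kb, and they were counted as sharing the direction when at least 2-fold higher in the library with the reads, on the log2(RPKM + 0.1) scale. Of all 21625 transcripts past the filter, 46.9% shared the direction of XH by this measure and 9.45% that of WRR. Neighbours include dash transcripts, which pass 2-fold in their own direction by the rule itself. The 461 dash-in-WRR transcripts formed 1656 pairs with neighbours, of which 976 (58.9%) were at least 2-fold higher in XH and 90 (5.43%) in WRR. Transcripts of series C without a dash had 56.7 and 4.65%, so the dash-in-WRR share stood near its background. At least 1 neighbour sharing the direction was found for 303 of the 350 dash-in-WRR transcripts that had any, and for 109 every neighbour shared it. These counts were not made for transcripts without a dash, so they are a description only. No neighbour at all was found for 111, 24.1% of the group, against 16.9% of all listed.

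The 157 dash-in-XH transcripts formed 573 pairs, of which 127 (22.2%) were at least 2-fold higher in WRR. The same share was 8.86% for transcripts of series B without a dash. With neighbours that are themselves dash transcripts left out, the dash-in-XH share was 18.3%. In the opposite direction, 221 pairs (38.6%) were at least 2-fold higher in XH, against 37.6%. A neighbour sharing the direction was found for 58 of 132, every neighbour for 19, and an opposite one for 79, again with no such counts for transcripts without a dash. The dash-in-XH transcripts with no neighbour numbered 25, or 15.9%, against 18.5% of series B. With ratios centred on the median of all transcripts, the shares were 34.7% for the dash-in-XH transcripts against 25.3% in series B, and 28.9% for the dash-in-WRR transcripts against 24.0% in series C. Pairs are not independent, since neighbours are shared between members.

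The separate and the overlapping transcripts had different surroundings. Among neighbours of the 317 separate dash-in-WRR transcripts, 587 of 839 (70.0%) were at least 2-fold higher in XH and 17 (2.03%) in WRR, and for the 144 overlapping ones 389 of 817 (47.6%) were higher in XH and 73 (8.94%) in WRR. Separate and overlapping transcripts of series C without a dash had 59.3 and 42.7% higher in XH. Among neighbours of the 64 separate dash-in-XH transcripts, 75 of 130 (57.7%) passed 2-fold towards WRR, and for the 93 overlapping ones 52 of 443 (11.7%). Separate and overlapping transcripts of series B without a dash had 9.05 and 8.07%. The separate dash-in-XH transcripts thus stood farthest from their background, although 31 of the 75 pairs came from 1 block on chromosome 3, without which the share was 44 of 99 (44.4%). Without that block, a block on chromosome 1 and a scaffold of chromosome 2 it was 24 of 76 (31.6%). The 75 pairs include some with other dash-in-XH transcripts, which the rule itself places towards WRR. Shares without such pairs were not computed for the separate transcripts.

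**Figure D3:**
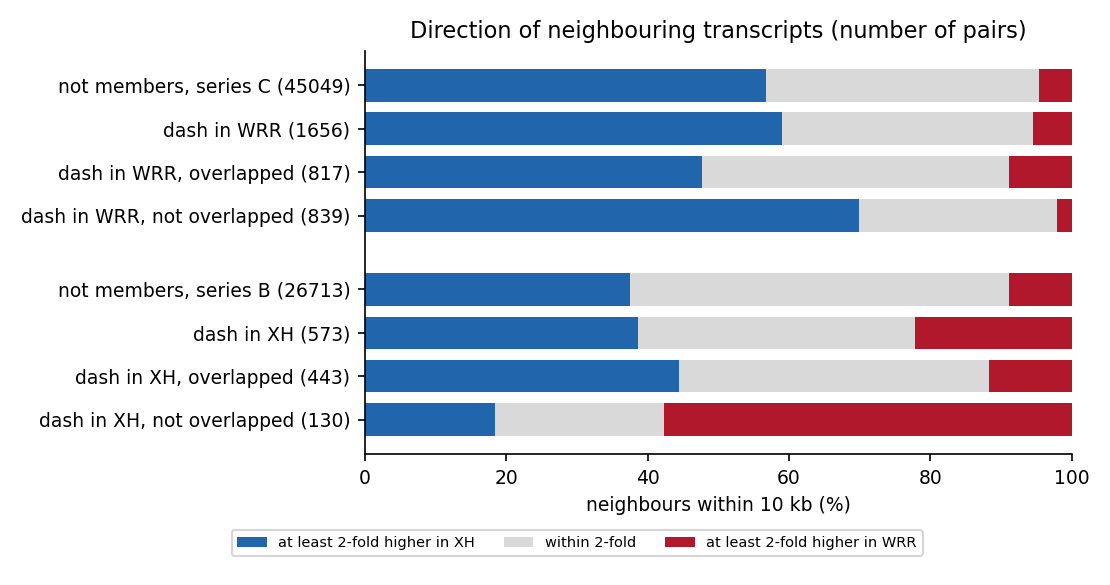
Percent of neighbours within 10 kb (horizontal axis) that were at least 2-fold higher in XH (blue), within 2-fold (grey) or at least 2-fold higher in WRR (red), with the number of pairs beside each bar, for transcripts without a dash of the same series and for the dash transcripts in all, overlapping and separate (not overlapped). The red part goes from 8.86% in series B to 57.7% for separate dash-in-XH transcripts, and the blue part from 56.7% in series C to 70.0% for separate dash-in-WRR transcripts. Neighbours that are dash transcripts, which pass 2-fold by the rule, are counted.

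The neighbours' own series moved with their direction. Looking at neighbours of series C alone, 798 of 925 (86.3%) beside dash-in-WRR transcripts were at least 2-fold higher in XH, against 76.2% beside transcripts without a dash. Looking at neighbours of series B alone, 124 of 231 (53.7%) beside dash-in-XH transcripts passed 2-fold towards WRR, against 19.4%. For separate dash-in-XH transcripts it was 75 of 99 (75.8%) against 18.1%. Within 1 series of neighbours a difference was thus still seen, larger beside the dash-in-XH transcripts, with neighbours that are dash transcripts counted. Such neighbours pass 2-fold by the rule, and their part in the difference was not separated. Neighbours of series C beside dash-in-XH transcripts were at least 2-fold higher in XH in 188 of 257 pairs (73.2%).

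The share of neighbours that were at least 2-fold higher in XH around dash-in-WRR transcripts was 64.9% for gaps under 1 kb, 61.4% for 1 to 5 kb and 59.6% for 5 to 10 kb, and 31.9% for overlapping neighbours. Around transcripts without a dash of all series together these shares were 47.9, 49.2, 49.9 and 41.0%. For those of series C alone the share was 56.7% over all neighbours, and it was not split by gap. The share at least 2-fold higher in WRR around dash-in-XH transcripts was 31.4, 25.1 and 21.7% at these gaps, and 5.49% for overlapping neighbours. Around transcripts without a dash of all series it was 6.08, 6.24, 5.99 and 13.4%, and 8.86% over all neighbours for series B alone. The exact intervals of the 3 gap classes overlapped in both groups, so no trend with distance is read from them.

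Most members had no other of their own group within 10 kb. Linking members of the same direction with gaps of at most 10 kb gave 29 pairs and 2 triples of dash-in-WRR transcripts, and 4 pairs, 1 triple and 1 run of 5 dash-in-XH transcripts. In all, 64 of 461 and 16 of 157 had another of their own group within 10 kb, and 13 of each had 1 of the opposite group. The groups made up 2.1 and 0.714% of all listed transcripts. How many members would lie together by placement alone was not computed, so these counts are not called few or many.

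The run of 5 lay on chromosome 3, in a block of 14 listed transcripts from 85903963 to 85982651. Of these, 7 had a dash in XH, and all 14 passed 2-fold towards WRR. The 7 with a dash pass it by the rule itself. The 7 dash-in-XH transcripts had 20, 33, 19, 27, 23, 22 and 44 reads in WRR in order along the chromosome, at 85.0 to 99.2% coverage. The 7 others had 22 to 66 reads in WRR and 1 to 4 in XH. The 7 transcripts without a dash, which the rule did not choose, summed to 302 WRR and 19 XH reads, a ratio per library total of 13.0 (exact 95% interval 8.17 to 21.9). XH reads were therefore few, and not absent, along the 78689 bases. The member with the most reads, 490 bases at 85960518 to 85961007, had 9.51 RPKM in WRR and lies inside the interval of a gapped transcript of 52 reads in WRR and 3 in XH. No other listed transcript lay within 851533 bases before or 179626 bases after the block.

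A block of lesser contrast lay on chromosome 1, 106577582 to 106607774, with 11 listed transcripts of which 10 passed 2-fold towards WRR and 2 had a dash in XH. Its start is a chosen cut, since another listed transcript lay 90 bases before it. No other listed transcript lay within 334430 bases after it. The gapped dash-in-XH transcript at 106588226 to 106597433 had 34 reads in WRR at 95.5% coverage, with 8 of its 9 neighbours sharing the direction, and the last transcript of the block, 309 bases at 106607466, had 16 reads. The 5 transcripts before the first dash had 37 to 73 reads in WRR and 6 to 30 in XH, and the 4 between the dashes had 28 to 47 in WRR and 1 to 4 in XH. XH reads were thus lower from the first dash onwards while WRR reads were spread over the block. The 9 transcripts without a dash summed to 426 reads for WRR and 88 for XH, a ratio of 3.95 (3.14 to 5.03).

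On the unlocalised scaffold of chromosome 2, which is 19889 bases long, the dashes in XH lay at 1 end. The first 3 of 7 listed transcripts had 18, 20 and 59 reads in WRR, at 87.5, 93.1 and 90.6% coverage, and a dash in XH. The next had 22 reads in WRR and 6 in XH, and the one after it 118 and 157, a ratio of 0.614 (0.479 to 0.785). The last, at 17964 to 19756, had a dash in WRR and 1 read in XH, under the threshold. The 4 transcripts after the first 3 summed to 151 WRR and 187 XH reads, a ratio of 0.660 (0.529 to 0.822). Most of these reads were on the transcript with 118 and 157. As XH over WRR the ratio was 1.52, below the median fold of 1.89 over transcripts past the filter. No particular lean of the rest of the scaffold towards XH is therefore read from it.

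In the other direction, a block on chromosome 2 from 129040553 to 129061050 held 10 listed transcripts, all at least 2-fold higher in XH, of which 2 had a dash in WRR. The dash-in-WRR transcript at 129049798 to 129050783 had 107 reads in XH but 47.6% coverage, and 79.4% of it was overlapped by a transcript of 26 reads in WRR and 216 in XH. The other, at 129060544 to 129061050, was separate and had 18 reads at 97.8% coverage. Over the 8 transcripts without a dash, XH had 3514 reads and WRR 435, a ratio of XH over WRR of 9.89 (8.95 to 10.9). The dashes there belonged to a place where all the listed transcripts were lower in WRR, the most read one at 88 reads in WRR and 1264 in XH.

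The triples of dash-in-WRR transcripts both lay on chromosome 1. At 29981026 to 29987549, 3 separate transcripts had 16, 15 and 15 reads in XH at 95.9, 67.2 and 88.8% coverage. The 1 other listed transcript beside them, at 29971187 to 29972312, had 4 reads in WRR and 31 in XH. This 1 transcript, which the rule did not choose, had a ratio of XH over WRR of 9.49 (3.35 to 37.0). At 65134866 to 65144693 the 3 transcripts had 7, 6 and 7 reads at 53.7, 16.9 and 40.2% coverage, and all 3 were overlapped by others. They had the most neighbours sharing the direction of any dash-in-WRR transcripts, 13 each out of 14, 14 and 15. The 19 others of the 22 listed transcripts from 65122910 to 65153011 had 886 XH reads against 419, a ratio of 2.59 (2.30 to 2.91). There 18 transcripts passed 2-fold towards XH, but 7 with centred ratios. The second triple thus stood in a place that both libraries read.

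A further dash-in-WRR transcript with many neighbours was the one at chromosome 10, 13189875 to 13190525. It had 22 reads in XH at 92.9% coverage and overlapped no other entry. All 11 of its neighbours were at least 2-fold higher in XH. It was named for the number of such neighbours, and 1 of them is itself a dash-in-WRR transcript, which passes by the rule. The share was 70.0% around all separate dash-in-WRR transcripts and 59.3% around separate series C transcripts without a dash.

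**Figure D4:**
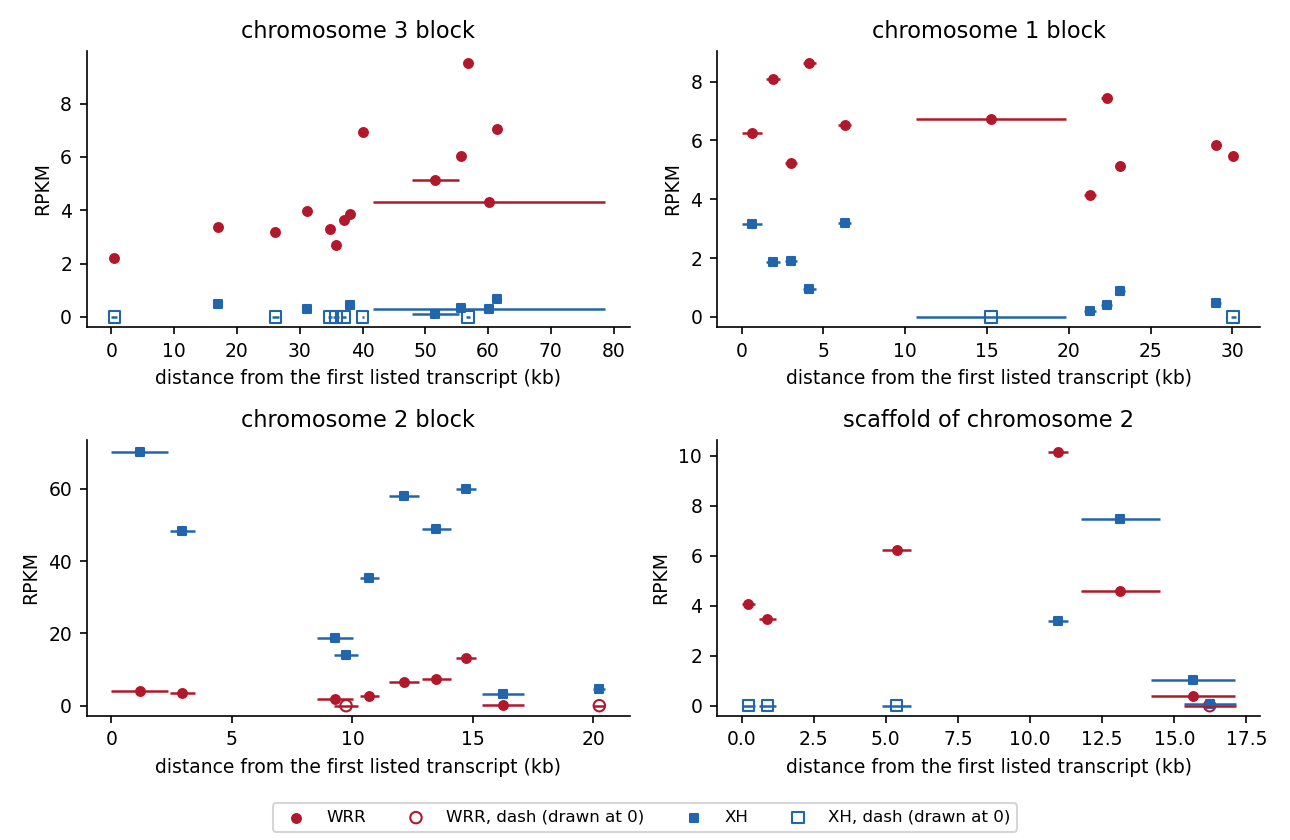
RPKM (vertical axis) in WRR (red circles) and XH (blue squares) of each listed transcript in 4 places, by distance from the first listed transcript there in kb; horizontal lines span each interval, and open symbols drawn at 0 mark a dash. In the chromosome 3 block all 14 transcripts are higher in WRR, in the chromosome 2 block all 10 are higher in XH, and on the scaffold the 3 XH dashes stand at 1 end.

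Dashes in WRR were placed on chromosomes 1 to 5 for 295 of 461 transcripts, 64.0% (exact 95% interval 59.4 to 68.4%), against 54.7% of all listed and 59.4% of series C. Of the transcripts listed for chromosomes 1 to 5, 2.45% had a WRR dash, for chromosomes 6 to 10 it was 1.86%, and for chromosomes 11 to 28 it was 1.61%. Within series C the 3 classes had 4.58, 4.11 and 3.62%. The tilt towards the long chromosomes was thus smaller within that series. Chromosomes 1, 2 and 3 held 95, 65 and 69 dash-in-WRR transcripts.

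Dashes in XH tilted towards the short chromosomes. Chromosomes 11 to 28 held 52 of 157, 33.1% (25.8 to 41.1%), against 19.2% of all listed and 24.0% of series B. Of the transcripts listed there 1.23% had an XH dash, against 0.690% for chromosomes 1 to 5 and 0.411% for chromosomes 6 to 10, and within series B these were 2.70, 1.96 and 1.22%. Chromosomes 11 to 28 thus had the highest share of these 3 classes also within that series, on 50 transcripts of which 7 lay on chromosome 27. Intervals of the shares within the series were not computed. Chromosomes 1 to 5 held 52.9% of the dash-in-XH transcripts (44.7 to 60.9%), and 43.8% of the 64 separate ones.

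Chromosome 27 was singled out after its values were seen. It held 7 of the 157 dash-in-XH transcripts, 4.46% (1.81 to 8.97%), against 0.459% of all listed, and no dash-in-WRR transcript. The 7 were 13.7% of the 51 series B transcripts listed for it. Their starts ran from 1370252 to 3584675, and they had 7, 35, 24, 12, 8, 21 and 9 reads in WRR in that order. They were spread along the chromosome and not in 1 block, and 3 of the 7 overlapped another entry.

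In hens, which carry 1 Z and 1 W, Z held 13 dash-in-WRR transcripts, 2.82% (1.51 to 4.77%), and 2 dash-in-XH transcripts, 1.27% (0.155 to 4.53%). Both intervals held the 3.86% found over all listed. None of the 80 listed W transcripts had a dash in either library, which by the limit of 3 counts allows a share of up to 0.651% of the dash-in-WRR and 1.91% of the dash-in-XH transcripts, and by the exact interval up to 0.797 and 2.32%. Both limits lie above the 0.364% that W takes of all listed, so no lack of dashes on W could be seen at this number. Unplaced scaffolds held 17 and 5 of them.

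**Figure D5:**
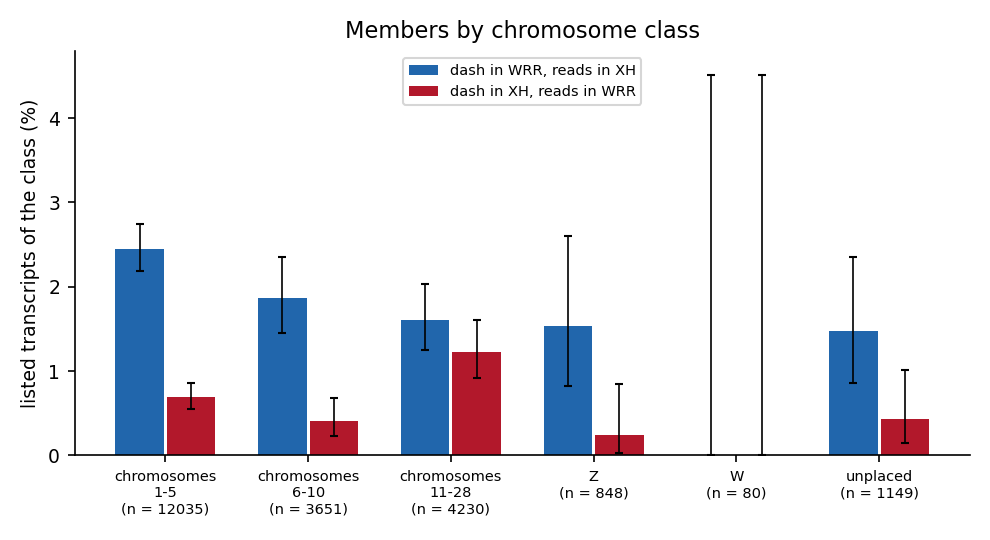
Percent of the listed transcripts of each chromosome class (vertical axis) that had a dash in WRR (blue) or in XH (red), with exact 95% intervals and the number listed under each class. The blue bars go from 2.45% on chromosomes 1 to 5 to 1.61% on chromosomes 11 to 28, and the red bar is highest on chromosomes 11 to 28 at 1.23%.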

How the data were processed

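The deposited values are the authors' counts of uniquely mapped reads per transcript, a coverage in percent and RPKM, per the file headers, which also give the totals 9442942 (WRR) and 7714657 (XH). The deposited counts, percent and RPKM stood as dashes together. The smallest listed count was 1, so a dash was read as 0 reads. The submitters' processing notes name build galGal4, TopHat2 2.0.8 and Cufflinks 2.0.2 without their roles. Assembly, merging and the call as non-coding are not given in the sources used.

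The members, lists and measures were chosen with earlier results of these data known. Ratios were log2((WRR + 0.1) / (XH + 0.1)) of RPKM, which understates changes of low transcripts. Folds against a dash used a floor of 3 reads per library. Shares and read ratios have exact Clopper-Pearson 95% intervals. Python 3.11.15, pandas 2.3.3, SciPy 1.17.1 and matplotlib 3.10.9 were used, and the counting of members, overlaps and neighbours was tested on simulated data. Series were set from serial numbers and chromosome order alone, with A up to 3658 and B up to 11941.

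The transcripts named were, in each direction, those with the most reads, the highest RPKM, the most neighbours sharing the direction, the extremes of length and reads, those beside the threshold, 3 with the highest partner and every run of 3 or more. Overlap classes, blocks beyond such runs, mutual overlaps and chromosome 27 were chosen after the values were seen. Lists of muscle, growth and other cell type genes were not run, since no transcript could be paired with a gene. No sequence is printed, since a galGal4 genome was not used here.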

Additional observations from a re-analysis of the deposited data

How the results depend on the processing

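No paired analysis was possible because there is 1 pooled library a strain, and no library could be left out. The number of dash-in-WRR transcripts was 116 with at least 20 reads, and that of dash-in-XH transcripts 296 with no minimum RPKM, 93 with at least 10 reads, 29 with at least 20 and 64 without overlapping ones. Median coverage was 89.2 and 85.0% with at least 10 reads and 89.7 and 89.6% without overlapping transcripts. The percent of neighbours sharing the direction of dash-in-WRR transcripts was 28.9 with centred ratios, 46.1 with a pseudocount of 1, 61.3 without overlapping neighbours, 42.4 within series B (9 transcripts) and 70.0 without overlapping transcripts. For dash-in-XH transcripts it was 34.7, 16.4 and, without neighbours that are members, 18.3, then 57.7 without overlapping transcripts and 17.1 without the chromosome 3 block. The share of dash-in-XH transcripts on chromosomes 1 to 5 was 43.8% without overlapping ones. Leaving out overlapping transcripts or the block was chosen after the data were seen. Where no cause is built into the setting, the cause was not tested. The numbers with a lower bound of the fold above 2 stayed within 1.5 times, at 306 to 354 and 59 to 117, and median lengths at 578 to 609 and 585 to 606 bases. What 0 reads can show is limited by depth: 8 XH or 11 WRR reads were needed for such a bound.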
